A study of Mus musculus with 28 samples.

Results

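The 29 genes of mouse RNA polymerase (Pol) subunits were examined in nascent RNA of mouse embryonic stem cells (mESCs) with and without Elongin A (EloA). The genes were taken by name, as every row that starts with Polr1, Polr2 or Polr3 or equals Polrmt, and they were 29 of 24984 rows in each table: 5 with Pol I names, 13 with Pol II names, 10 with Pol III names and Polrmt. The assay was Bru-seq, in which RNA made during a short pulse of 5-bromouridine (BrU) is pulled down with an antibody and sequenced. Cells of the CCE28 line, wild-type (WT) or EloA null, were taken in steady state, with 2 mM BrU for 10 min, or after 1 µM flavopiridol (FP, a P-TEFb inhibitor that holds Pol II near the start of genes) for 60 min, which was washed out before 2 mM BrU was given for 5 or 10 min. There were 2 libraries for each genotype in each of the 3 conditions, 12 in all. EloA null cells were 1 line, grown on feeder fibroblasts that were removed before labeling, and both genotypes had medium with LIF and inhibitors of MEK and GSK3. The treatment label names CJ7 cells, and the first steady-state library titled EloA null carries a genotype label of wild type; the main steady-state counts are therefore given with and without it. Nothing in the labels says whether the 2 libraries of a group came from separate cultures, while figure legends of the study speak of 2 independent experiments. What was kept separate between them is not stated. The p-values measure the spread between these libraries, which may be partly technical.

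Pol I makes ribosomal RNA, Pol II makes messenger RNA and many noncoding RNAs, and Pol III makes transfer RNA, 5S RNA and other short RNAs. Each is built on a large pair of subunits that form the catalytic center, with an assembly platform, a stalk and peripheral subunits around it, and several small subunits are common to all of them. Polrmt is a separate single-subunit enzyme that transcribes mitochondrial DNA. Every gene described here is nuclear and is itself transcribed by Pol II, so its nascent RNA reports Pol II transcription of the gene, not the amount or activity of the enzyme it encodes.

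Library sizes worked out from the RPKM values lay between 9857527 and 28547354 reads, with the smallest in 5-min recovery. RPKM is reads per kb of counted length scaled to the size of the library, and 28 of the 29 genes gave whole reads in every library when the length of their introns was used (Polr3e did not), so the values were close to intronic nascent RNA. The methods of the study speak of reads counted over whole genes, whereas at least 98.7% of genes gave whole reads with intron length and at most 4.04% with the whole span, and this difference was not resolved. The counts behind a member ran from 6 to 9410 reads per library. The targeted gene, Eloa, showed 1.18 and 1.16 RPKM in WT and 1.96 and 1.89 RPKM in the libraries labelled EloA null in steady state (limma log2 difference 0.67 ± 0.08 SE, adjusted p = 0.0999). Its EloA null libraries were above WT in all 3 conditions, so the nascent RNA of Eloa showed no fall in its transcription. These values do not bear on the EloA protein, whose loss they could not check. The study examined the protein in both lines by immunoblot and, at Rn45s, describes EloA binding signal in null cells as near the IgG background. The steady-state library whose genotype labels disagree, at 1.96 RPKM, lay near the other EloA null library and above both WT libraries. Which of its labels is right was not tested. All 8 embryonic stem cell markers had a mean over 0.5 RPKM in every condition, while the summed RPKM of 9 fibroblast markers was 1.44 to 1.92 in the WT and 1.20 to 1.39 in the EloA null steady-state libraries, 1.53 to 1.76 and 0.770 to 1.40 at 5 min, and 2.20 to 3.11 and 1.59 to 2.38 at 10 min. The summed RPKM of the stem cell markers was 182 to 191 in WT and 186 to 197 in EloA null in steady state, but 254 to 274 against 193 to 244 at 5 min and 297 to 326 against 276 to 289 at 10 min, below WT without overlap. The part of these marker levels in the genotype differences was not tested.

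Polr2c and Polr2e lay above WT in the EloA null libraries of all 3 conditions. They were among 4 of 27 members that did, beside 8.79% of tested genes. Polr3k and Polr3g lay below WT in all 3 conditions, the only 2 of 27 members, beside 10.1% of genes. Polr3gl is the paralog of Polr3g. No member passed the adjusted threshold in the main test of any condition. The bases upstream of these 5 members are shown as a description, and their link to genotype was not tested. They are the 250 bases before the RefSeq start on the strand of the gene (GRCm38.p6), at chr8:94857200-94857449 (+ strand) for Polr2c, chr10:80039660-80039909 (- strand) for Polr2e, chr2:181864110-181864359 (+ strand) for Polr3k, chr13:81711014-81711263 (- strand) for Polr3g and chr3:96594182-96594431 (- strand) for Polr3gl. Capitals mark matches on either strand to short motifs bound by known factors. The ETS factor core was searched as CCGGAAG. For the GC box the letters were GGGCGG. For the E box they were CACGTG. The other motifs were CCAAT and, for the TATA box, TATAAA.
Polr2c: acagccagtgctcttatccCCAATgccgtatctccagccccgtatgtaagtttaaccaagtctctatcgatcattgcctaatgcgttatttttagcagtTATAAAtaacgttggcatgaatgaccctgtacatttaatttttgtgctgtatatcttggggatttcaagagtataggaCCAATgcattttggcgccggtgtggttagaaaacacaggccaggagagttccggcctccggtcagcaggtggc
Polr2e: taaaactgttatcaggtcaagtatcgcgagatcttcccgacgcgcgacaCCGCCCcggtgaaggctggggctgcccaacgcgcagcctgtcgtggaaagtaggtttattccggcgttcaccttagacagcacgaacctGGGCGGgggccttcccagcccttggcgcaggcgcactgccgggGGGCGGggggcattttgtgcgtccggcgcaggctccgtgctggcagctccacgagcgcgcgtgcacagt
Polr3k: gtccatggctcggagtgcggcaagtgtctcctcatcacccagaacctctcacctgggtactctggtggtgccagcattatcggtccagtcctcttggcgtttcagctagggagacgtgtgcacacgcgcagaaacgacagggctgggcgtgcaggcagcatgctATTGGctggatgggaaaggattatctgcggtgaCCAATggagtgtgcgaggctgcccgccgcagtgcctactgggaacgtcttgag
Polr3g: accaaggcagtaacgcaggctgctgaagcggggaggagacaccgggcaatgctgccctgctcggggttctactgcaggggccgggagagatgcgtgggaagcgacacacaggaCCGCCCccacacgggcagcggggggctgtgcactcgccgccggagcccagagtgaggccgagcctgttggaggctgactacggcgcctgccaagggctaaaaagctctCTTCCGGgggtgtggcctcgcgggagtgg
Polr3gl: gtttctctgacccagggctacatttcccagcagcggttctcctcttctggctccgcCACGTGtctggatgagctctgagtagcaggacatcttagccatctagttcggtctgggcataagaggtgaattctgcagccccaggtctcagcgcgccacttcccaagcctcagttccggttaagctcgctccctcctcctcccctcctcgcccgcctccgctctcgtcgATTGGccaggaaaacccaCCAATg

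RefSeq windows of 300 bases, 250 before and 50 after the start, were found for 23 of the 29 genes. CCGGAAG was in 8 of these 23 (Polr1c, Polr1e, Polr2c, Polr2f, Polr2j, Polr3b, Polr3g and Polrmt), and in 9.93% of the windows of 27025 genes and 22.6% of those of 8332 genes tested in steady state. GGGCGG was in 14 of 23 members and 68.7% of tested genes, and CCAAT in 7 of 23 and 43.3%. CACGTG was in 4 members against 12.6% of tested genes, and TATAAA in 3 against 8.13%. In Polr3g the ETS core lay 29 bases before the start, and in Polr2c it lay after the start and is not in the bases shown. Polr3gl, which shares its role with Polr3g, held an E box and 2 CCAAT matches in the bases shown and no match to the GC box, while Polr3g held a GC box there and no CCAAT.

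Nascent RNA of the subunit genes spanned a wide range in WT cells in steady state. In bulk libraries, fewer cells of a type and less RNA per cell cannot be told apart. Polr2m, whose product Gdown1 associates with Pol II, had the highest value, 8.99 ± 0.10 RPKM (SD, n = 2), and Polr2a, the largest Pol II subunit with the C-terminal repeat domain, followed at 8.68 ± 1.12 RPKM (SD, n = 2); their libraries overlapped. Both stood above 94.2% and 94.0% of expressed genes, respectively. Polr3gl and Polrmt had the lowest values, 0.322 ± 0.055 and 0.626 ± 0.024 RPKM (SD, n = 2). The other 25 genes lay between 1.02 RPKM (Polr2g) and 5.61 RPKM (Polr3e). In the order of WT levels, 10 of the 28 neighboring pairs had libraries that did not overlap, so most neighbors could not be told apart beyond their spread.

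**Figure D1:**
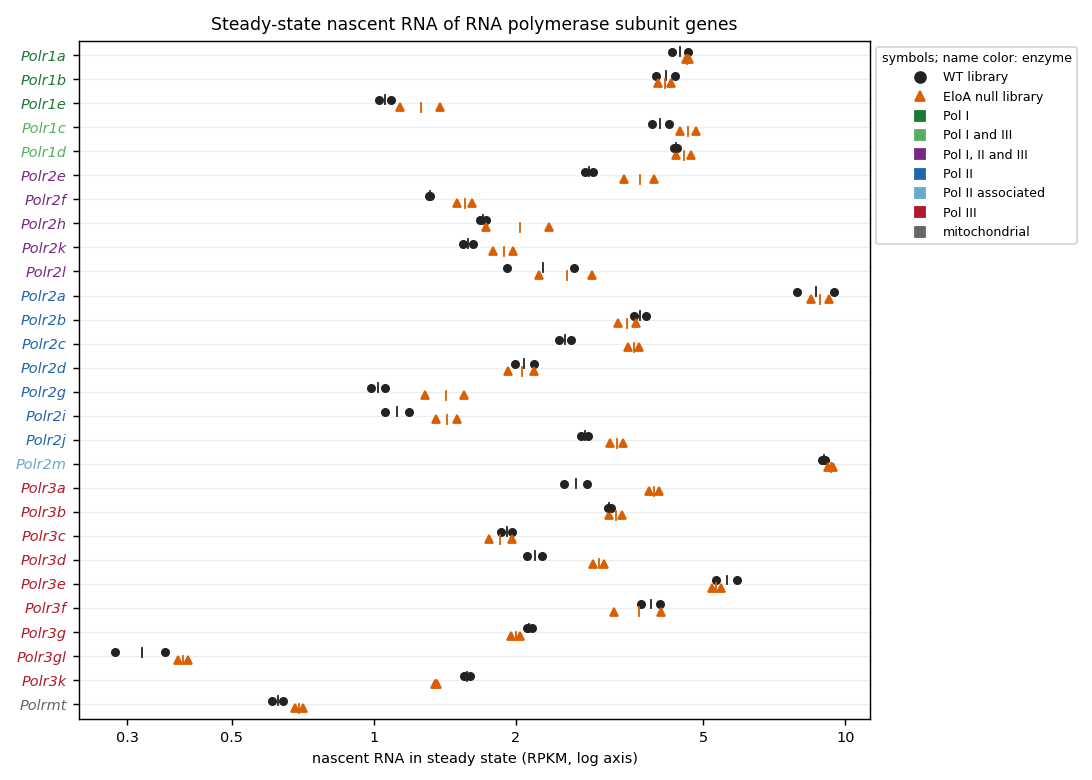
Nascent RNA in steady state (RPKM, log axis) of 28 of the 29 genes, grouped by the enzyme that holds the subunit; circles are WT and triangles EloA null libraries, and vertical bars are means of 2 libraries. Polr2m and Polr2a sit at 8.99 and 8.68 RPKM in WT and Polr3gl at 0.322 RPKM, and the EloA null triangles of the 5 subunits common to Pol I, II and III have means to the right of WT.

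The catalytic pairs did not stand at equal levels. Polr2a had 9.47 and 7.90 RPKM in the WT libraries and 9.24 and 8.46 RPKM in EloA null. Polr1a, the largest Pol I subunit, had 4.63 and 4.298 RPKM in WT and 4.59 and 4.65 RPKM in EloA null. Polr3a, the largest Pol III subunit, had 2.83 and 2.53 RPKM in WT and 3.84 and 4.02 RPKM in EloA null. The WT libraries of the large subunits thus did not overlap among the enzymes, in the order Pol II, Pol I and Pol III. The second-largest subunits were closer, at 4.17 RPKM for Polr1b, 3.66 RPKM for Polr2b and 3.16 RPKM for Polr3b as WT means. Over all genes of a name, the WT median was 4.17 RPKM for the 5 Pol I names, 2.28 RPKM for the 13 Pol II names and 2.17 RPKM for the 10 Pol III names, with ranges of 1.06 to 4.46, 1.02 to 8.99 and 0.322 to 5.61 RPKM that overlap; the median over all tested genes was 1.80 RPKM.

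Polr3g and Polr3gl encode alternative forms of one Pol III subunit, of which Polr3g is known as the form of stem cells. Polr3g had 2.17 and 2.11 RPKM in WT and 1.96 and 2.05 RPKM in EloA null in steady state. Polr3gl had 0.361 and 0.283 RPKM in WT and 0.405 and 0.385 RPKM in EloA null. Polr3g was higher than Polr3gl in all 12 libraries. In steady state it exceeded Polr3gl by 6.00 and 7.46 times in WT and by 4.84 and 5.32 times in EloA null. In 10-min recovery the ratio was 13.3 and 16.6 in WT and 10.8 and 10.7 in EloA null, so that the EloA null libraries lay below WT in these 2 conditions. In 5-min recovery they overlapped (3.64 and 5.37 in WT, 2.63 and 7.11 in EloA null), with Polr3gl resting on 18 to 25 reads. Polr3gl missed the filter of a mean over 0.5 RPKM in every condition and was not tested.

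No subunit gene differed between the genotypes past an adjusted p of 0.05 in any condition (limma on log2(RPKM + 0.1), Benjamini-Hochberg adjusted). In steady state 28 members were tested and 0 passed, as did 0% of 11347 genes, and at an unadjusted p under 0.05 there were 7 members, beside 18.4% of all tested genes. Without the library whose genotype labels disagree there were 5 (Polr2c, Polr2e, Polr2g, Polr3a and Polr3d), beside 17% of genes. In 5-min recovery 0 of 27 passed, as did 0% of 8985 genes, and 3 members were under the unadjusted limit, beside 9.42%. In 10-min recovery 0 of 28 passed, as did 0% of 10241 genes, and 7 were under it, beside 20.5%. Past 1.5-fold, counted as the ratio of means, there were 0 members higher and 0 lower in steady state (7.21% and 2.1% of genes) and 0 and 0 in 5-min recovery (5.4% and 6.72%). In 10-min recovery there were 2 higher, Polr3a and Polr2i, and 0 lower (9.41% and 3.01% of genes). These counts turned on single libraries, as did those over all tested genes. With every library 818, 485 and 964 genes were higher in steady state and at 5 and 10 min, and 604 were lower at 5 min. Without WT replicate 1 the members higher numbered 1 in steady state (Polr3a), 1 at 5 min (Polr3a, with Polr2i lower) and 4 at 10 min. The genes higher were then 1072, 738 and 1464, and 538 were lower at 5 min. Without EloA null replicate 1, 2 members were higher in steady state (Polr2g and Polr3a, beside 1045 genes) and 0 at 10 min (818 genes). Without WT replicate 2, 0 members were higher at 10 min (880 genes), and Polr2a was 1 gene lower at 5 min (1113 genes). Without EloA null replicate 2, 6 members were higher at 10 min (1426 genes), with 3 lower at 5 min (Polr2i, Polr3g and Polr3k, beside 889 genes). Since 2 libraries against 2 can give no exact permutation p below 0.333, single values were not tested in that way.

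In steady state, 20 of 28 members had a ratio of means above 1, against 56.5% of tested genes, and 19 without the library whose genotype labels disagree (53.8% of genes). With the GC trend of each library removed, as described below, the median difference over the members was -0.0013 and 14 of 28 were above 0. The share of all genes above 0 after this removal is not given here. The EloA null libraries were both above both WT libraries for 14 of 28 members, against 32% of tested genes, and both below for 2, against 21.4%. Without the library whose genotype labels disagree, these counts were 17 (43.4% of genes) and 6 (36.5%). In 5-min recovery they were 4 (15.4% of genes) and 5 (25%) of 27, and in 10-min recovery 15 (33.5%) and 5 (21.8%) of 28. Over all 3 conditions, Polr2c, Polr2e, Polr2h and Polr3a were above WT in every library (4 of 27 members, 8.79% of genes), and Polr3g and Polr3k were below (2 of 27, 10.1%). For Polr2h the gap was narrow in steady state and 5-min recovery.

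**Figure D2:**
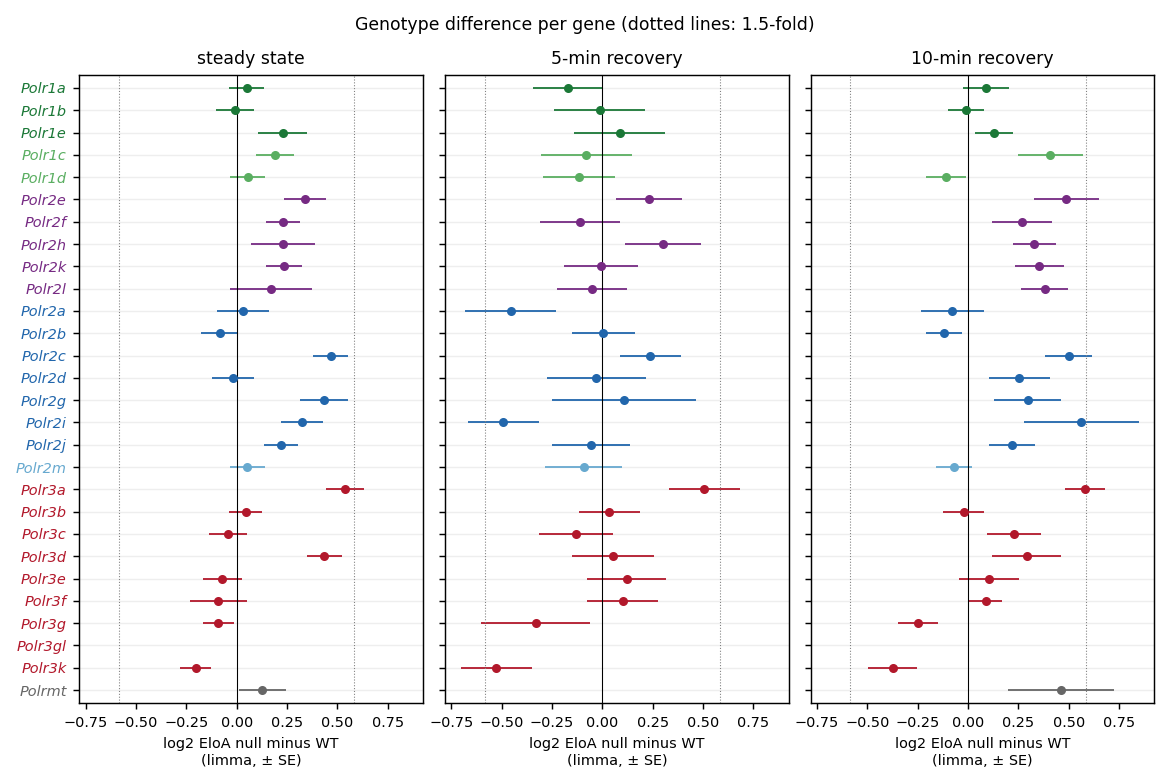
Fitted log2 difference, EloA null minus WT, with its standard error (limma, 2 libraries per group) for each tested gene plotted, in steady state and in 5-min and 10-min recovery; dotted lines mark 1.5-fold and colors the enzymes. Polr3a stands right of 0.5 in all 3 panels and Polr3k left of 0, and no gene passed the adjusted threshold.

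The 5 subunits common to all nuclear polymerases had higher means in EloA null in steady state and 10-min recovery. All 5 (Polr2e, Polr2f, Polr2h, Polr2k and Polr2l) had ratios above 1 in steady state (56.5% of tested genes), with a median log2 ratio of 0.25 against 0.04 over all tested genes. Without the library whose genotype labels disagree, 4 of 5 did, with a median of 0.18. In 10-min recovery all 5 did (58.0% of genes), with a median of 0.37 against 0.06, and in 5-min recovery 3 of 5 did (40.7%), with 0.01 against -0.06. Polr2e, a common subunit of the outer jaw, had 2.81 and 2.92 RPKM in WT and 3.40 and 3.93 RPKM in EloA null in steady state (log2 difference 0.34 ± 0.10 SE, adjusted p = 0.213). In 10-min recovery it had 5.88 and 4.93 RPKM in WT and 8.54 and 6.76 RPKM in EloA null (0.49 ± 0.16 SE, adjusted p = 0.218). The groups did not overlap in either condition. Polr2h, another common subunit, had 3.24 and 2.90 RPKM in WT and 3.79 and 3.96 RPKM in EloA null in 10-min recovery (0.33 ± 0.11 SE, adjusted p = 0.208), also without overlap. Polr2k (0.35 ± 0.12 SE, adjusted p = 0.227) and Polr2l (0.38 ± 0.12 SE, adjusted p = 0.199) lay in the same range at 10 min, and Polr2f had 0.23 ± 0.08 SE in steady state (adjusted p = 0.26).

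These values moved with the base composition and with the length of the genes. Over 11272 tested genes the log2 ratio in steady state had a Spearman rho of 0.53 with the GC content of the gene, and over the 28 members it was also 0.53, which is a description of points that share the same libraries. At 10 min it was 0.46 and 0.54, and in 5-min recovery 0.04 and -0.01. With the span of the gene, rho over the members was -0.52 in steady state, -0.058 at 5 min and -0.57 at 10 min, and over all genes -0.31, -0.072 and -0.36. All 10 tested members with at least 50% GC were above 1 in steady state, with a median log2 ratio of 0.24, next to 0.25 over all 3085 such genes. With the GC trend of each library removed, the median of the 5 common subunits was 0.06 in steady state and 0.15 in 10-min recovery, and that of all members was -0.0013 and 0.045. Polr2e then had 0.06 ± 0.07 SE in steady state and 0.13 ± 0.08 SE at 10 min, and Polr2i had 0.0043 in steady state. Polr2k, with the lowest GC content of the members (38.7%), had 0.36 ± 0.06 SE in steady state (limma, adjusted p = 0.105). Of the other common subunits, Polr2h had 0.26 ± 0.13 SE, Polr2f 0.045 ± 0.08 SE and Polr2l -0.024 ± 0.20 SE in steady state. Polr2h had 0.36 ± 0.09 SE at 10 min, and Polr2g, a subunit of Pol II alone, had 0.41 ± 0.14 SE in steady state. Polr2k overlaps the protein-coding gene Spag1 on the same strand, so its reads may include those of Spag1, and it rested on 93 to 126 reads per library in steady state.

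Among the 7 subunits of Pol II alone, Polr2c, Polr2g and Polr2i were under the unadjusted limit in steady state, and neither gene of the catalytic pair was under it in any condition. Polr2c, which nucleates assembly of the enzyme, had 2.62 and 2.47 RPKM in WT and 3.45 and 3.66 RPKM in EloA null in steady state (0.47 ± 0.09 SE, adjusted p = 0.123). In 5-min recovery it had 3.34 and 3.22 RPKM in WT and 3.87 and 3.90 RPKM in EloA null. At 10 min it had 6.28 and 6.15 RPKM in WT and 9.59 and 8.14 RPKM in EloA null (0.50 ± 0.12 SE, adjusted p = 0.156). The EloA null libraries of Polr2c were above WT each time, and with the GC trend removed the differences were 0.28 ± 0.06 SE in steady state and 0.28 ± 0.09 SE at 10 min. In a limma fit of all 12 libraries Polr2c passed at 10 min (0.50, adjusted p = 0.0384), beside 264 of 10241 genes. Polr2c overlaps Dok4 on the opposite strand, and although reads of each strand were separated, use of strand in the gene counts is not stated. Polr2g, a stalk subunit, had 0.988 and 1.06 RPKM in WT and 1.28 and 1.56 RPKM in EloA null in steady state (0.43 ± 0.12 SE, adjusted p = 0.188). Its libraries overlapped at 5 min, with 4.24 and 6.64 RPKM in WT and 4.27 and 7.66 RPKM in EloA null, and at 10 min, with 5.99 and 7.61 RPKM in WT and 9.12 and 7.595 RPKM in EloA null. Polr2a had fitted differences of 0.03 ± 0.13, -0.46 ± 0.23 and -0.08 ± 0.16 SE in steady state and at 5 and 10 min (adjusted p = 0.917, 0.605 and 0.801), and Polr2b had -0.09 ± 0.09, 0.0050 ± 0.16 and -0.12 ± 0.09 SE (adjusted p = 0.651, 0.993 and 0.482).

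Polr2i, a small zinc-binding subunit that acts in proofreading, changed sides between steady state and 5-min recovery. It had 1.06 and 1.19 RPKM in WT and 1.4997 and 1.35 RPKM in EloA null in steady state (0.32 ± 0.10 SE, adjusted p = 0.224). In 5-min recovery it had 1.12 and 1.37 RPKM in WT and 0.794 and 0.913 RPKM in EloA null (-0.49 ± 0.18 SE, adjusted p = 0.509). At 10 min it had 1.09 and 0.644 RPKM in WT and 1.501 and 1.11 RPKM in EloA null (0.56 ± 0.29 SE, adjusted p = 0.332). The 10-min difference ran from 0.22 to 0.90 when 1 library was left out and was 0.16 with the GC trend removed. It is the shortest member, 1.314 kb, overlaps Tbcb and Ovol3, and rested on 6 to 24 reads per library. The test of the change in genotype difference between 5-min recovery and steady state gave adjusted p = 0.842.

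The Pol III genes went both ways. Polr3a had 1.42 and 1.08 RPKM in WT and 1.78 and 1.81 RPKM in EloA null in 5-min recovery, and 2.85 and 2.65 RPKM in WT and 4.26 and 4.06 RPKM in EloA null at 10 min. Its EloA null libraries were above WT in each condition, with fitted differences of 0.54 ± 0.10, 0.51 ± 0.18 and 0.58 ± 0.10 SE (adjusted p = 0.119, 0.505 and 0.112), and with the GC trend removed of 0.45, 0.55 and 0.48. Polr3d, which belongs to a TFIIF-like pair with Polr3e, had 2.11 and 2.28 RPKM in WT and 2.92 and 3.08 RPKM in EloA null in steady state (0.44 ± 0.09 SE, adjusted p = 0.131), and 0.23 with the GC trend removed. Its libraries overlapped at 5 min, with 0.792 and 0.616 RPKM in WT and 0.748 and 0.710 RPKM in EloA null, and at 10 min, with 3.08 and 2.59 RPKM in WT and 3.05 and 3.97 RPKM in EloA null. Polr3a and Polr3d are the members on chromosome 14, and the 416 tested genes of that chromosome had a median log2 ratio of 0.52 in steady state, with 41.1% of them higher past 1.5-fold, against 0.03 and 5.73% of 10856 genes on other chromosomes. The chromosome 14 medians were 0.48 and 0.53 at 5 and 10 min. Whether the chromosome accounts for the values of Polr3a and Polr3d was not tested.

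Polr3k, which acts in RNA cleavage and termination by Pol III, lay below WT in the EloA null libraries. It had 1.60 and 1.55 RPKM in WT and 1.36 and 1.35 RPKM in EloA null in steady state. In 5-min recovery it had 2.46 and 2.36 RPKM in WT and 1.44 and 1.86 RPKM in EloA null (-0.53 ± 0.18 SE, adjusted p = 0.499). At 10 min it had 5.57 and 4.73 RPKM in WT and 3.84 and 4.03 RPKM in EloA null (-0.38 ± 0.12 SE, adjusted p = 0.208). The groups did not overlap in any condition. A limma fit of all 12 libraries gave the same value at 5 min with adjusted p = 0.048, and 532 of 8985 genes were under 0.05 in that fit. Polr3g had fitted differences of -0.09 ± 0.08, -0.33 ± 0.27 and -0.25 ± 0.10 SE (adjusted p = 0.562, 0.766 and 0.264) and also did not overlap. At 5 min Polr3g passed the filter of a mean over 0.5 RPKM only through its WT mean (0.561 RPKM, against 0.429 RPKM in EloA null). Polr3b, the second-largest subunit, had 0.04 ± 0.08, 0.03 ± 0.15 and -0.02 ± 0.10 SE (adjusted p = 0.803, 0.967 and 0.92).

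**Figure D3:**
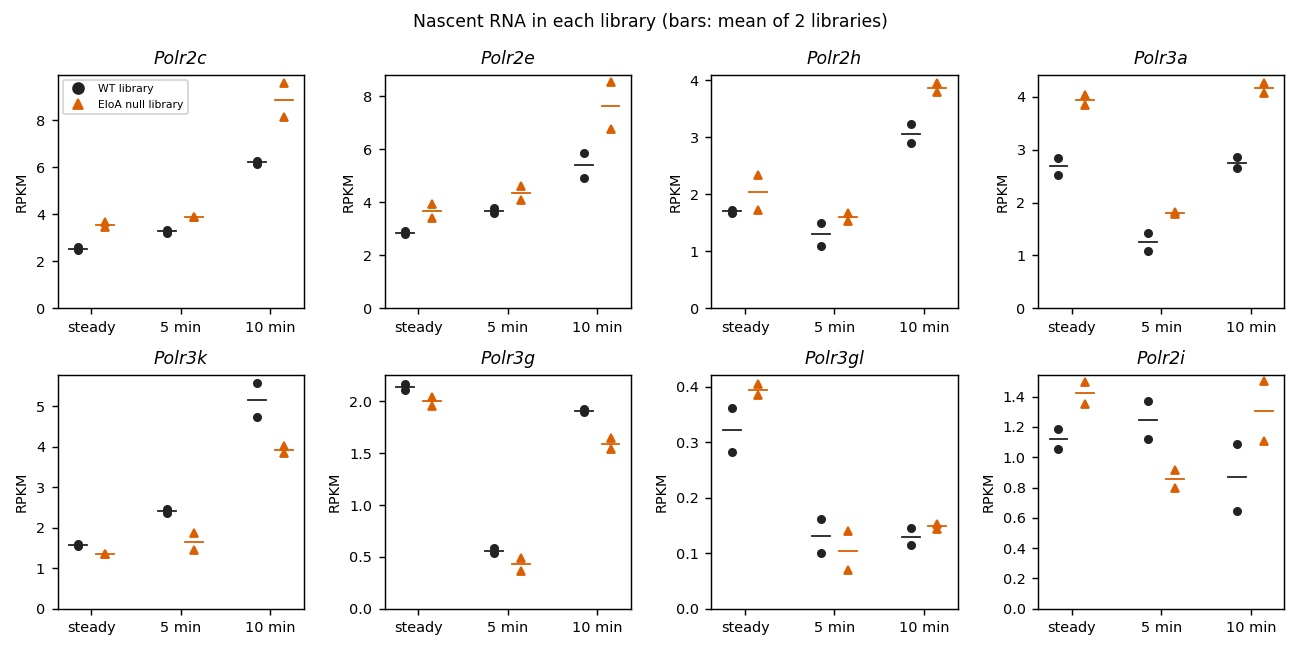
RPKM of 8 genes in each library in steady state and in 5-min and 10-min recovery, with circles for WT, triangles for EloA null and bars for the mean of 2 libraries; each panel has its own axis from 0. The EloA null libraries of Polr2c, Polr2e, Polr2h and Polr3a lie above WT in each condition, those of Polr3k and Polr3g below, and those of Polr2i change sides in 5-min recovery. For Polr2h the gap is narrow in steady state and 5-min recovery.

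The catalytic Pol I genes had differences smaller than their standard errors. Polr1a had 0.05 ± 0.09, -0.17 ± 0.18 and 0.09 ± 0.11 SE in steady state, 5-min and 10-min recovery (adjusted p = 0.79, 0.813 and 0.681). Polr1b, the second-largest subunit, had -0.0083 ± 0.09, -0.014 ± 0.23 and -0.010 ± 0.09 SE (adjusted p = 0.973, 0.991 and 0.961). Polr1c, shared with Pol III, had 4.96 and 4.28 RPKM in WT and 6.97 and 5.43 RPKM in EloA null at 10 min, without overlap. Polr1d, its partner in the assembly platform, had 9.32 and 10.4 RPKM in WT and 8.93 and 9.30 RPKM in EloA null at 10 min, where the lower WT library was just above the higher EloA null library. Polrmt had 0.609 and 0.643 RPKM in WT and 0.680 and 0.706 RPKM in EloA null in steady state (0.13 ± 0.12 SE, adjusted p = 0.584), and 0.536 and 0.411 RPKM against 0.855 and 0.546 RPKM at 10 min (0.46 ± 0.26 SE, adjusted p = 0.374). Its 10-min difference ran from 0.18 to 0.74 when 1 library was left out and was 0.064 with the GC trend removed. At 10 min Polrmt passed the filter of a mean over 0.5 RPKM only through its EloA null mean (0.701 RPKM, against 0.474 RPKM in WT). In 5-min recovery Polrmt had 0.181 and 0.176 RPKM in WT and 0.0997 and 0.112 RPKM in EloA null, on 8 to 15 reads, and was not tested.

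Compared by name, 11 of 13 Pol II genes had a ratio above 1 in steady state, as did 4 of 5 Pol I genes and 4 of 9 tested Pol III genes, against 56.5% of all tested genes. The median log2 ratios were 0.25, 0.06 and -0.04. Without the library whose genotype labels disagree, 9 of 13, 5 of 5 and 4 of 9 were above 1 (53.8% of genes). In 10-min recovery 10 of 13, 3 of 5 and 5 of 9 were above 1 (58.0% of genes), with medians of 0.30, 0.09 and 0.09. In 5-min recovery 6 of 13, 1 of 5 and 5 of 9 were (40.7% of genes), with medians of -0.01, -0.09 and 0.04. With the GC trend removed, the steady-state medians of fitted differences were 0.03, -0.01 and -0.02, with 10 of 13, 1 of 5 and 3 of 9 genes above 0. Those at 10 min were 0.15, -0.045 and -0.026, with 9 of 13, 2 of 5 and 4 of 9 genes above 0. The share of all genes above 0 after this removal is not given, so these counts have no background beside them. The change of the genotype difference from steady state to recovery passed in 0 of 27 members at 5 min (0.0811% of 8628 genes) and 0 of 28 at 10 min (0.0102% of 9825 genes). At an unadjusted p under 0.05 in limma it was 1 member, Polr2i, at 5 min (5.57% of genes) and 0 at 10 min (1.37%).

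Recovery from FP is set against steady state below as a description, since the scaling between the tables is not stated, and the 5-min pulse was shorter than the 10-min pulse of steady state. In WT cells at 5 min, 13 of 29 members were above their steady-state RPKM, with a median ratio of 0.950, while 27.9% of 11308 expressed genes were and their median was 0.623. At 10 min 22 of 29 were above it, with a median of 1.74, against 50.4% of genes and a median of 1.0105. In EloA null cells the member medians were 0.777 and 1.81, against 0.561 and 1.02 over all genes. By name, the WT medians at 10 min were 1.815 for Pol I, 1.89 for Pol II and 1.16 for Pol III genes, with median spans of 27.1, 6.26 and 16.1 kb.

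Each member was set among genes of like length, since recovery ratios differed with the length of the gene. In WT the median ratio at 5 min was 0.467 for genes of 20 to 40 kb and 0.984 for those over 80 kb. At 10 min it was 0.637 for genes over 80 kb. The position of Pol II was not measured here, and the cause of these differences was not tested. Polr2g, 5.43 kb long, stood at 4.14 and 6.499 times its steady state in the WT libraries at 5 min and at 5.86 and 7.44 times at 10 min, above 99.6% and 99.8% of 1408 genes of 5 to 10 kb. Polr2d, its partner in the stalk, stood at 4.22 and 4.92 times and then 3.44 and 4.42 times, above 99.5% and 97.4% of the same genes. Polr3f, a subunit that acts in Pol III initiation, stood at 4.13 and 4.03 times at 10 min, above 97.2% of 2138 genes of 10 to 20 kb. These 3 genes were also above 97.9% of like genes in EloA null at 10 min, the lowest being Polr3f. They were the members farthest above genes of their length at 10 min.

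Other members stayed low. Polr3gl stood at 0.449 and 0.355 times its steady state in WT at 10 min, above 4.91% of genes of 10 to 20 kb. Polrmt stood at 0.857 and 0.656 times, above 16.2%, and Polr3e at 0.714 and 0.590 times, above 22.5% of 2281 genes of 20 to 40 kb. Polr3g went from 0.275 and 0.250 times at 5 min to 0.900 and 0.886 times at 10 min in WT. Among the longest genes, Polr1a, 70.4 kb, stood at 0.766 as the WT mean at 10 min, where the median of 40 to 80 kb genes was 0.714, and Polr3b, 105 kb, at 0.915, above 84.0% of the 1506 genes over 80 kb. At 5 min Polr3b stood at 1.00 and 1.06 times its steady state in the WT libraries. That was above 53.8% of the genes over 80 kb, whose median was 0.984.

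**Figure D4:**
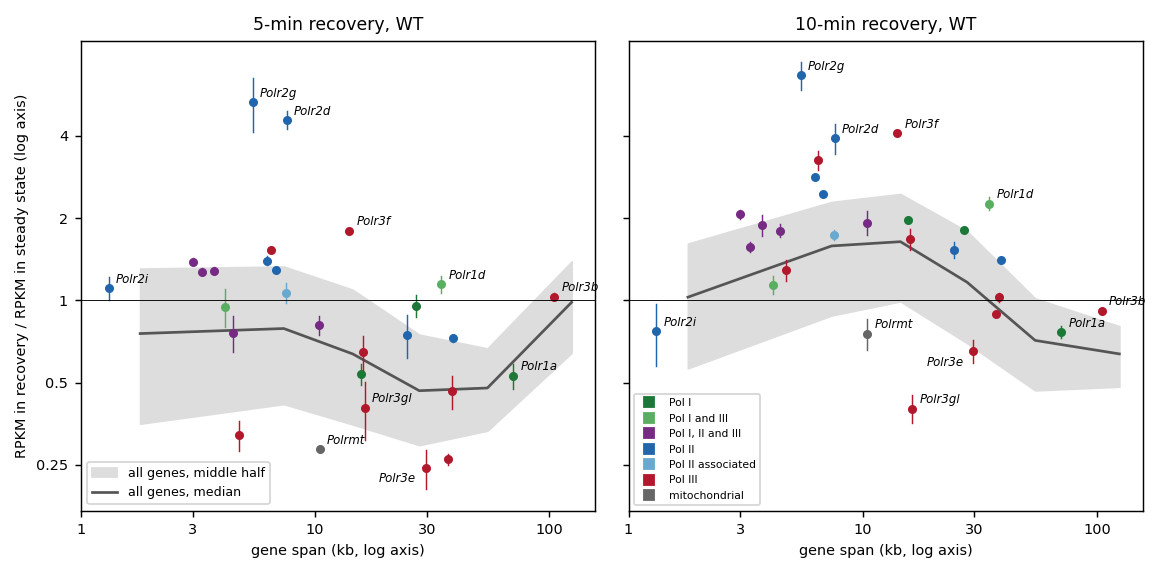
Ratio of RPKM in recovery to the steady-state mean in WT (log axis) against gene span in kb (log axis), at 5 min on the left and 10 min on the right; points are means of 2 libraries for 28 of the 29 genes, vertical lines join them, and the gray line and band give the median and middle range (25th to 75th percentile) of all expressed genes by length. Polr2g, Polr2d and Polr3f lie above the band at 10 min and Polr3gl below it. They are not alone, since Polr3k, Polr2j and other members also lie above it, and Polrmt and Polr3e below it.

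Genes that work around the polymerases were counted as lists, and none passed an adjusted p of 0.05 in limma in any condition. At an unadjusted p under 0.05 there were, in steady state and at 5 and 10 min, 2, 0 and 3 of the Pol III initiation and repression genes, 2, 1 and 3 of the Pol II assembly genes, 0, 0 and 1 of the mitochondrial genes, and 0 of the other 2 lists, beside 18.4%, 9.42% and 20.5% of all tested genes. Without the library whose genotype labels disagree, the steady-state counts were 1 Pol III initiation and repression gene (Snapc2), 1 Pol II assembly gene (Gpn2) and 1 Pol I initiation gene (Ubtf), beside 17% of genes. Of the subunits that go by other names (Znrd1, Cd3eap, Twistnb and Crcp), 0 of 4 were past 1.5-fold in any condition. Among Pol I initiation factors 0 of 7 were past 1.5-fold in any condition, with a median log2 ratio of -0.06 in steady state. Among 16 Pol III initiation factors and repressors, 2 were higher past 1.5-fold in steady state, beside 7.21% of genes. These were Snapc2, a subunit of the snRNA activating complex, at 0.986 and 0.932 RPKM in WT and 1.63 and 1.44 RPKM in EloA null, and Maf1, the Pol III repressor, at 0.232 and 0.447 RPKM in WT and 0.809 and 0.744 RPKM in EloA null. In steady state Maf1 passed the filter of a mean over 0.5 RPKM only through its EloA null mean (0.776 RPKM, against 0.339 RPKM in WT). Maf1 was also past 1.5-fold at 10 min, at 0.700 and 0.691 RPKM in WT and 1.28 and 1.34 RPKM in EloA null. At 5 min Snapc2 had 1.38 and 0.783 RPKM in WT and 0.624 and 0.861 RPKM in EloA null, and Maf1, not tested there, had 0.633 and 0.328 RPKM against 0.233 and 0.562 RPKM, so the libraries of both overlapped. In 7 genes for assembly and import of Pol II, Rtraf alone was past 1.5-fold, at 5 min (15.4 and 15.6 RPKM in WT, 21.0 and 25.6 RPKM in EloA null), and it lies on chromosome 14. Of 6 mitochondrial transcription genes, 0 were past 1.5-fold, with a median log2 ratio of -0.09 in steady state.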

How the data were processed

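Bru-seq values of 12 libraries were used (WT and EloA null, 3 conditions, 2 libraries each), grouped by their titles; 16 CUT&RUN and ChIP samples were not analysed here. The authors aligned reads to mm10 and dm3 with bowtie2, kept unique reads with samtools, separated the strands, counted reads over whole RefSeq genes with featureCounts, normalized with edgeR and deposited RPKM values, 1 table per condition. The submitters' processing notes list Bowtie2 2.3.4.3, featureCounts 1.6.1 and HOMER 4.10.3. Use of strand in the gene counts and scaling between tables are not given in the sources used here, and the files hold no read counts. The labels give 25-50 µg of RNA for the pull-down, which differs from the amount in the methods of the study.

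The members and gene lists were chosen with earlier results of these data known. Fitted values were given for the catalytic pairs, Polrmt, Polr3g and Polr3gl where tested, and for any member past 1.5-fold or an unadjusted p of 0.05 in a condition. Genes with a mean over 0.5 RPKM in WT or EloA null were tested within a table by limma 3.58.1 (R 4.3.3, with trend) on log2(RPKM + 0.1), which understates changes of low genes, with Benjamini-Hochberg adjustment, after a test on simulated data. The change in genotype difference between conditions was fitted over the libraries of both tables. Library sizes were worked out from the steps between RPKM values, with a tolerance of 0.02 reads. Gene spans, introns and GC content came from RefSeq on GRCm38.p6, the build named mm10 by the authors, for 24841 of 24984 rows. Promoter windows came from RefSeq on GRCm38.p6. Recovery ratios used means of 2 libraries. Alternatives were other pseudocounts (1 and 0.01), no filter, median centring, removal of a GC trend, a fit of all 12 libraries, the replicate number as a block, a 2-fold limit and leaving out each library. Counts without the steady-state library whose genotype labels disagree were added after seeing the data. The values of 1 member are not reported here, and it is counted in the totals only.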

Additional observations from a re-analysis of the deposited data

Results flagged for a closer look

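Polr2i was marked because its libraries labelled EloA null were above WT in steady state and below WT in 5-min recovery. The genotype difference at 5 min minus that in steady state was -0.8153 on the log2 scale (limma interaction, SE 0.32, adjusted p = 0.842), on 6 to 24 reads per library.

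Polr2m was marked because its EloA null libraries were above WT in steady state (8.92 and 9.06 RPKM in WT, 9.43 and 9.21 RPKM in EloA null) and below WT at 10 min of recovery (15.0 and 16.2 RPKM, against 14.8 and 15.0 RPKM). The change was -0.1224 on the log2 scale (limma interaction, SE 0.16, adjusted p = 0.9999), which did not pass.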

How the results depend on the processing

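Of 418 values of fitted members under alternatives, 392 kept their direction and side of the threshold, 24 changed sign and 2 passed. Part of these members were included because they passed 1.5-fold or an unadjusted p of 0.05 in limma in these same data. Such values are less likely to change sign, so these counts do not measure how stable all members are. The 2 that passed did so in a fit of all 12 libraries. They were Polr3k at 5 min (-0.53), beside 532 of 8985 genes, and Polr2c at 10 min (0.50), beside 264 of 10241 genes. Values that changed sign were small: with median centring Polr1a (-0.0104), Polr2a (-0.0285) and Polr3b (-0.0154) in steady state, Polr1b at 5 min (0.0521) and Polr1a at 10 min (-0.0080), and with the GC trend removed Polr1a (-0.0096) and Polrmt (-0.185) in steady state and Polr1b at 5 min (0.0421). Leaving out 1 library changed the sign of Polr1a (range -0.0028 to 0.102), Polr1b (-0.0728 to 0.0563), Polr2a (-0.0985 to 0.161) and Polr3b (-0.0021 to 0.0911) in steady state, of Polr1b (-0.249 to 0.221), Polr2b (-0.0781 to 0.0881) and Polr3b (-0.0062 to 0.0761) at 5 min, and of Polr1b (-0.0416 to 0.0212), Polr2a (-0.256 to 0.0986) and Polr3b (-0.0787 to 0.0339) at 10 min.

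Genes past an adjusted p of 0.05, 0 in each condition, numbered 132, 532 and 264 in steady state and at 5 and 10 min with all 12 libraries fitted, and at 10 min 5 with pseudocount 1, 12 with median centring and 11 with the GC trend removed. Without 1 library they were 0 to 90 at 5 min and 0 to 81 at 10 min. For the change of the genotype difference, the 7 genes at 5 min became 1 with pseudocount 1, 21 with pseudocount 0.01, 56 with no filter and 0 to 20 without 1 library. The 1 gene at 10 min became 3 with pseudocount 0.01, 27 with no filter and 0 to 1 without 1 library.

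With the replicate number as a block, 0, 128 and 0 genes passed in steady state and at 5 and 10 min, and the changes of the genotype difference numbered 2 and 0. The labels do not say that a number marks a shared culture, and the correlation of same-numbered deviations was 0.10, 0.12 and 0.10 over 2 pairs per condition, so the libraries were treated as sharing only a number. Of the 28, 27 and 28 members tested, 0 passed with the block.

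Genes past 1.5-fold, 818 higher and 238 lower in steady state, 485 and 604 at 5 min and 964 and 308 at 10 min, became 3843 and 1854, 2985 and 3790, and 4434 and 2228 with no filter, and 213 and 102, 199 and 239, and 280 and 126 with a 2-fold limit. With the GC trend removed, 411 were higher in steady state and 500 at 10 min. Without 1 library the genes higher were 572 to 738 at 5 min and 818 to 1464 at 10 min, and those lower 538 to 1113 and 297 to 493. Members higher were 0 to 2, 0 to 1 and 0 to 6 in the 3 conditions and those lower 0 to 3 at 5 min. With median centring 1 member, Polr3a, was higher at 5 min and 0 at 10 min, with a 2-fold limit 0 and with the GC trend removed 0 at 10 min, and with no filter Polrmt was 1 lower at 5 min.

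The median recovery ratio of the members relative to all genes was 1.53 at 5 min and 1.72 at 10 min in WT, and 1.38 and 1.785 in EloA null. Relative to genes under 10 kb these were 1.24, 1.45, 1.21 and 1.44. Without 1 library the 5-min values ran from 1.33 to 1.39 in WT and 1.39 to 1.44 in EloA null. The WT value of 1.53 lies above its range and the EloA null value of 1.3844 just below its own (lowest 1.3873). The cause of these changes was not tested.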

Other observations

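From 5 to 10 min of recovery, WT nascent RNA of the members changed by unequal amounts, given here as ratios of means across tables whose common scaling is not stated. Polr3d stood 4.03 times higher at 10 min than at 5 min, Polr1e 3.64 times and Polr3g 3.40 times. Polr2d, Polr3b and Polr2i had ratios of 0.859, 0.886 and 0.696, and Polr3gl had 0.991. Polr2d was already far above steady state at 5 min, as given above. Polr3b, the longest member, was at 1.00 and 1.06 times its steady state in the WT libraries at 5 min, where the median of genes over 80 kb was 0.984.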
